A study of Mus musculus with 18 samples.

Results

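All-trans retinoic acid (ATRA) was compared with BMS961, an agonist specific for retinoic acid receptor gamma (RARγ), in F9 mouse embryonal carcinoma cells at matched treatment times. F9 is an established line of tumour stem cells that differentiates towards primitive endoderm when it is given retinoids. The members were the 4 ATRA and 4 BMS961 arrays at 2, 6, 24 and 48 h, 8 of the 18 arrays of the series, which made 4 pairs matched by time. Each retinoid and time had 1 array. ATRA was given at 1 µM and BMS961 at 0.1 µM, so the ligand and its dose cannot be told apart in any difference below. The only vehicle controls were 2 ethanol arrays at 48 h, and no vehicle array matched 2, 6 or 24 h. The remaining 8 arrays were of the RARα-specific agonist BMS753 and the RARβ-specific agonist BMS641 at 1 µM. They entered the choice of a gene's probe set, the estimate of spread for some fits, and the scaling and gene filter of some alternatives. All cells were of this single line grown on gelatine-coated plates in serum, and the labels do not say whether arrays came from separate cultures, so p-values measure only the spread between these arrays.

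Retinoic acid receptors bind DNA with a retinoid X receptor partner at direct repeats of a short half-site. They recruit corepressors when empty and coactivators when a ligand is bound. ATRA is the natural ligand and activates the α, β and γ receptors, whereas BMS961 was designed to favour the γ receptor. In F9 cells the γ receptor is known for its part in differentiation and in the induction of several retinoid target genes. Classical direct targets include Cyp26a1, which encodes the enzyme that clears retinoic acid, Rarb, which encodes the β receptor, and the 3′ genes of the Hox A and B clusters, which give cells a position along the body axis.

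The receptor's binding letters are shown here because Cyp26a1 and Rarb, whose levels are described below, carried them in the stretch just before the gene start. The search was for 2 copies of a half-site (AGGTCA, its variant AGTTCA, the form GGGTCA or the form GGTTCA) on either strand with 5 bases between them (DR5), in the 250 bases before each start in RefSeq's mouse promoter set (GRCm38.p6). Capitals mark the match, and each sequence reads 5′ to 3′ along the gene's own strand.
Cyp26a1, chr19:37697756-37697807, + strand: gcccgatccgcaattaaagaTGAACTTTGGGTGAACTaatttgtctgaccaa
Rarb, chr14:16575498-16575549, - strand: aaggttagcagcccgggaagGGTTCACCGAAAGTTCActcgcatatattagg
In Cyp26a1 the first capital lay 32 bases before the start and the repeat was on the opposite strand, and in Rarb it lay 53 bases before the start on the gene's strand. The same search matched 29 of 32851 promoter windows (0.0883%). Of 21 early retinoid target genes looked up, 13 had a promoter in the set and 2 of these held the match. Of the 26 genes named below as higher on the mean difference or as lying beyond the vehicle difference, 20 had a promoter and 1, Cyp26a1, held it. A search with 2 bases between the half-sites (DR2) matched 57 of the 32851 windows (0.174%). It matched 0 of the early targets and 0 of the named genes. A match is a description of letters, not of receptor binding.

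The labelled cell type was checked against marker genes on the 10 arrays compared. The median level of 7 embryonal carcinoma markers was between 10.37 and 11.91 on the log2 scale of the deposited levels. Median levels of 6 fibroblast markers (4.62 to 4.94), 5 visceral endoderm markers (4.25 to 4.71) and 4 trophoblast markers (4.55 to 4.83) were low on every one of these arrays. Medians of 3 mesoderm markers were 5.01 to 5.81, and those of 4 neural markers were higher, at 6.45 and 7.03 on the vehicle arrays and 6.81 to 7.32 with the retinoids. Medians of 9 primitive and parietal endoderm markers were 6.03 and 7.08 on the vehicle arrays, and reached 9.89 with ATRA and 9.09 with BMS961. The vehicle arrays themselves stood apart: of 19938 genes, replicate 1 exceeded replicate 2 by 2-fold or more in 311 (1.56%) and was that far below it in 354 (1.78%). The ATRA-minus-BMS961 differences ran in the same direction as that vehicle difference. Across genes, which are not independent replicates, the correlation of the pair difference with vehicle replicate 1 minus replicate 2 was 0.45 at 2 h, 0.57 at 6 h, 0.70 at 24 h and 0.25 at 48 h. Over the 12146 probe sets with no listed gene it was 0.21, 0.35, 0.57 and 0.17. The pairs and the vehicle difference share no array. However, replicate 2 was taken from replicate 1 because the ATRA arrays resembled replicate 1 and the BMS961 arrays replicate 2 in these data. The positive sign of these correlations, and the shared signs given below, are therefore not independent findings. No label links a vehicle array to a ligand. The vehicle difference, or both vehicle levels, is therefore given for the genes named. Subtracting it takes the same 2 arrays from all 4 pairs, so the 4 subtracted values are not independent of each other, and what sets the vehicle arrays apart was not tested. The vehicle difference is 1 pair, so its own error was not measured. Errors and p-values of subtracted values take it to be that of the retinoid pairs.

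**Figure D1:**
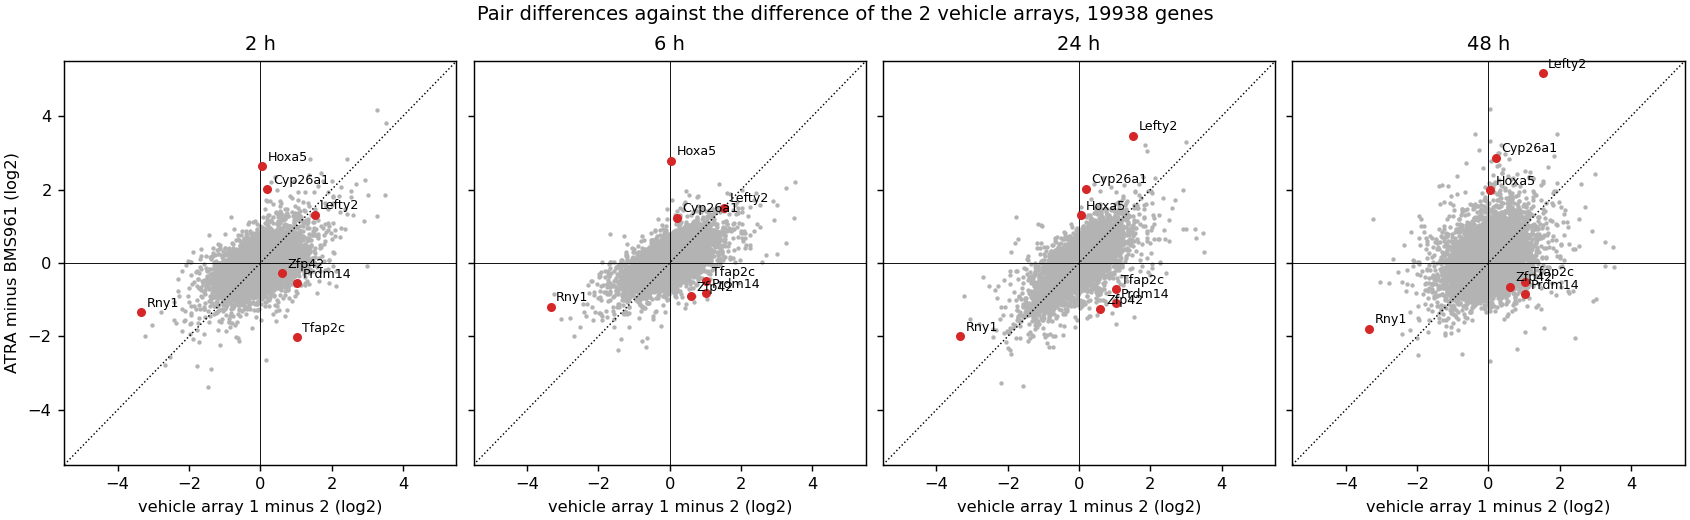
Each grey point is 1 of 19938 genes, with the log2 difference of vehicle array 1 minus 2 on the x axis and ATRA minus BMS961 at the named time on the y axis; the dotted line marks equality. The cloud runs along the dotted line at 24 h (correlation 0.70) and less so at 48 h (0.25), Hoxa5 and Cyp26a1 lie above it at a vehicle difference near 0, and Prdm14, Tfap2c and Zfp42 lie below 0 at a vehicle difference above 0.

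Counted at single times, with no test because each side is 1 array, ATRA was at least 2-fold above BMS961 for 153 genes (0.767%) at 2 h, 134 (0.672%) at 6 h, 239 (1.2%) at 24 h and 512 (2.57%) at 48 h. It was at least 2-fold below for 172 (0.863%), 80 (0.401%), 345 (1.73%) and 150 (0.752%) genes. The vehicle pair, 2 arrays given the same treatment, gave counts of the same order. Less the vehicle difference, the counts higher and lower became 182 and 376 at 2 h, 175 and 141 at 6 h, 104 and 172 at 24 h, and 665 and 452 at 48 h. The 24 h count was lower after the subtraction and the other 3 were higher. Of the 512 genes at least 2-fold higher at 48 h, 394 were so at that time only, and 236 were also at least 2-fold higher after the subtraction. The pair differences resembled each other most between neighbouring times: their correlation across genes was 0.52 between 2 and 6 h, 0.46 between 6 and 24 h and 0.38 between 24 and 48 h, against 0.10 between 2 and 48 h.

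Averaged over the 4 pairs, the called differences furthest above 0 were those of Hoxa5, Cyp26a1 and Hoxb5, and those furthest below 0 were of Snora16a, n-R5s136 and Rny1, genes of small RNAs whose vehicle arrays differed by as much or more in the same direction. In a limma fit with time as a block, 31 genes (0.155%) were higher and 26 (0.13%) lower at a Benjamini-Hochberg adjusted p below 0.05, and all 57 had the same sign in all 4 pairs. The times stood in for replicates, so the error was the change of the difference over the 4 pairs. A difference that grew or shrank with time was therefore called less readily. With each array centred on its median the split was 41 higher and 70 lower. It was 0 and 0 with quantile normalization, and 0 higher and 4 lower with no time block. The calls of Hoxa5, Cyp26a1 and Hoxb5 were thus lost in both of these fits. The count rested on particular pairs: it was 116 without the 2 h pair, 5 without the 6 h pair, 0 without the 24 h pair and 27 without the 48 h pair, while 2425 to 3476 genes had an unadjusted p below 0.05 in those fits. The vehicle difference had the same sign as the mean difference in 56 of the 57 called genes (98.2%, against 68.5% of all genes), and was at least as large in 29. The median of the called higher genes was 1.06 with a median vehicle difference of 0.93, and that of the called lower genes was -0.96 with a vehicle median of -1.22. Once the vehicle difference was subtracted, no gene passed in either direction (0.0% higher and 0.0% lower) by limma, with 668 genes at an unadjusted p below 0.05. Of the 57, 14 higher genes and 1 lower gene lay beyond both 0 and the vehicle difference in all 4 pairs. Over all genes this held for 391 on the higher side (1.96%) and 857 on the lower side (4.3%).

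Hoxa5, a Hox A cluster gene, had the largest called difference in favour of ATRA. Its level was 7.84, 8.71, 9.73 and 10.47 with ATRA at 2, 6, 24 and 48 h, against 5.20, 5.92, 8.42 and 8.49 with BMS961, and 5.57 and 5.52 on the vehicle arrays. ATRA was above BMS961 at every time, and at 2 and 6 h the BMS961 arrays differed from vehicle replicate 2 by -0.32 and 0.40 while the ATRA arrays differed from replicate 1 by 2.27 and 3.14. The mean difference was 2.18 ± 0.23 (SE, 4 pairs; 4.52-fold; adjusted p by limma 0.0349), with a 95% interval from 1.63 to 2.72. Because its vehicle difference was only 0.04, the mean hardly moved on subtraction (2.13 ± 0.52), but the error grew with the vehicle term and the adjusted p of that mean was 0.999. At the early times alone, 2 and 6 h, Hoxa5 was called also after the subtraction (2.67 ± 0.31, 6.34-fold, adjusted p by limma 0.0262). That call was lost without the 2 h pair, without either BMS753 or BMS641 in the fit, and with the ATRA, BMS961 and vehicle arrays only, where no gene was called.

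Cyp26a1 was high with both ligands and higher with ATRA. Its level was 10.06, 10.30, 10.97 and 12.01 with ATRA, against 8.04, 9.07, 8.94 and 9.14 with BMS961, and 5.05 and 4.85 without retinoid. The 4 ATRA values did not overlap the 4 BMS961 values, and all 8 lay far above the vehicle arrays. ATRA exceeded BMS961 by 2.03 ± 0.23 on average (4.10-fold, adjusted p 0.0405, limma). Less the vehicle difference of 0.20 the mean was 1.84 ± 0.52, with a 95% interval from 0.62 to 3.05 and an adjusted p of 0.999. The difference was widest at 48 h (2.87), where ATRA was at its highest and BMS961 stayed near its 6 h level.

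Rarb, whose promoter sequence above also holds the repeat, differed mainly early. It stood at 7.58, 7.50, 8.39 and 9.27 with ATRA and at 5.95, 6.52, 8.05 and 8.52 with BMS961, with vehicle arrays at 5.79 and 4.45. Both ligands gave rising values from 6 h on, and the gap was 1.63, 0.97, 0.34 and 0.74, smallest at 24 h. The early difference of 1.30 ± 0.21 was called (adjusted p 0.013, limma), but it matched the vehicle difference of 1.33 and was -0.03 ± 0.37 once that was subtracted. Its late difference was 0.54, with a 95% interval from 0.07 to 1.01 (adjusted p 0.15, limma).

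Of the 19 members of the Hox A and B clusters measured, 4 were called higher on the mean of all times (Hoxa2, Hoxa5, Hoxb4 and Hoxb5), beside 0.155% of all genes, and none lower. After the subtraction none was called over all times. All 4 pair differences were above 0 in 13 of them, against 9.72% of all genes, and 8 lay above both 0 and the vehicle difference in every pair, against 1.96% of all genes. The median difference over the 19 was 0.37, 0.58, 0.76 and 0.85 in time order, while the medians over all genes lay between -0.09 and 0.05; the group's median vehicle difference was 0.28. After subtraction of the vehicle difference the median was 0.12, 0.03, 0.56 and 0.38 by time, smaller than before at every time, and 0.14 for the mean. At 24 and 48 h together 11 of 19 were called higher, beside 4.92% of all genes. Leaving out either late pair leaves 1 array for each ligand, so the stability of this late count cannot be judged. The count over all 4 times was 5, 1, 0 and 1 without the 2, 6, 24 and 48 h pair. Differences were small for Hoxa13 (-0.13, -0.17, 0.12 and -0.32; vehicle 0.28) and Hoxa9 (0.02, -0.14, 0.23 and -0.10; vehicle 0.15), genes of the posterior part of cluster A, whereas Hoxb13, at the posterior end of cluster B, was called late with pair differences of 0.46, 0.58, 1.73 and 0.76 and a vehicle difference of 0.34.

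Within the B cluster, Hoxb5 reached 6.51, 6.73, 7.71 and 7.58 with ATRA, and stayed at 4.87, 5.43, 5.74 and 5.63 with BMS961, against 5.14 and 4.55 on the vehicle arrays. The 4 ATRA values lay above all BMS961 and vehicle values. Its mean difference was 1.72 ± 0.13 (adjusted p 0.0312, limma), and 1.13 ± 0.30 less the vehicle difference. Hoxb2 showed the widest gap of the cluster at 48 h, with 9.41 on the ATRA array and 6.08 on the BMS961 array. Its differences were 0.96, 1.72, 1.53 and 3.33 with a vehicle difference of 0.05, and it was called late (2.43 ± 0.33, adjusted p 0.00181, limma) but missed the threshold on the mean of all times (adjusted p 0.0626). Hoxb4 differed by 1.31, 1.13, 0.78 and 1.34 with a vehicle difference of 0.23. Of the 18 genes measured in clusters C and D, none was called over all times and 3 were higher late, beside 4.92% of all genes.

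**Figure D2:**
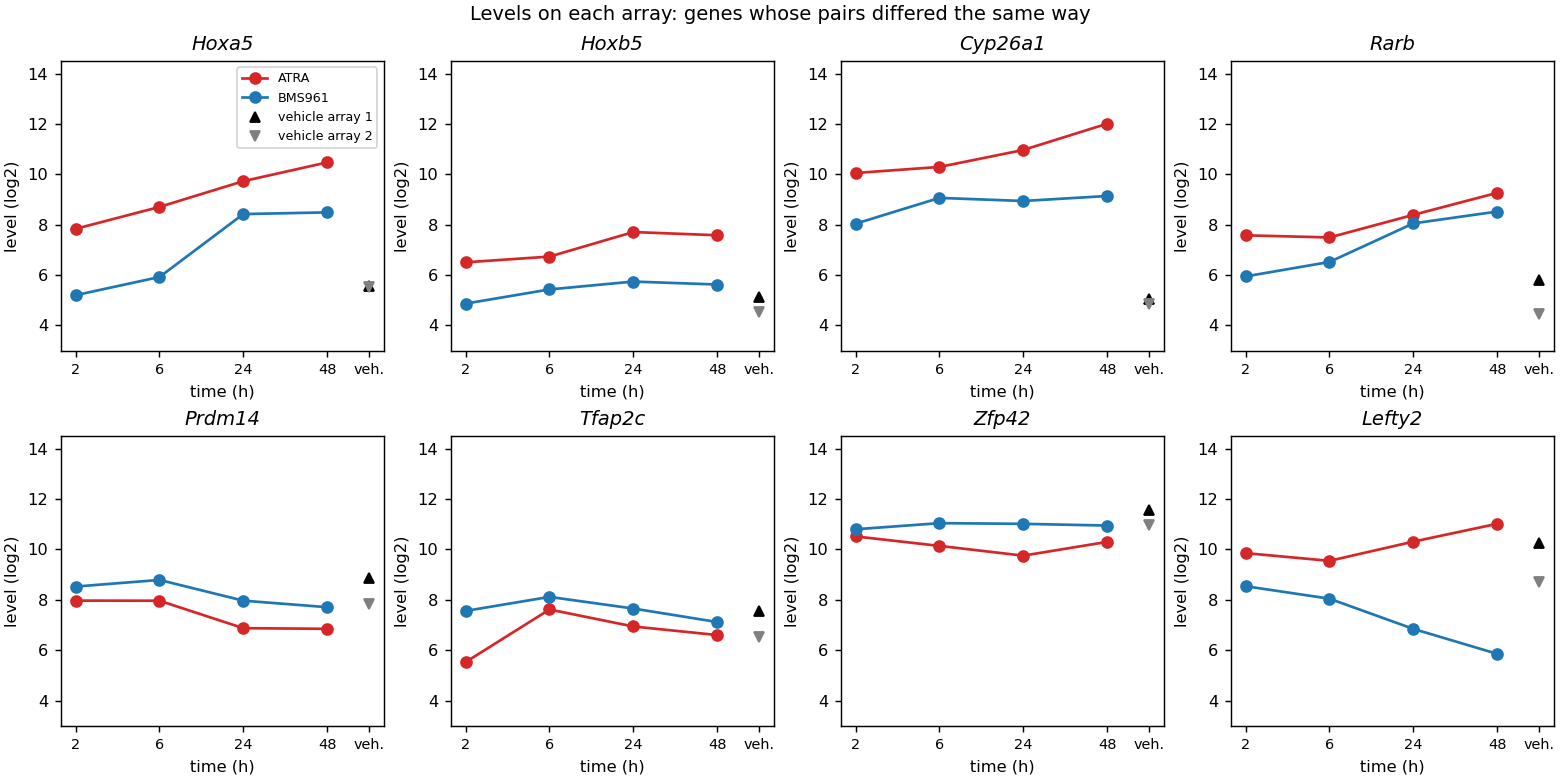
Log2 levels on every array of ATRA and BMS961 by time (connected points, 1 array each) and on the 2 vehicle arrays (triangles) for 8 genes. The ATRA line lies above BMS961 at all times for Hoxa5, Hoxb5, Cyp26a1, Rarb and Lefty2 and below it for Prdm14, Tfap2c and Zfp42; the vehicle triangles lie together for Hoxa5 and Cyp26a1 and apart for Rarb, Prdm14, Tfap2c and Lefty2.

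The remaining called higher genes differed in how they stood against the vehicle arrays. Rhob, a small GTPase, differed by 1.34, 1.86, 0.83 and 1.54, always above its vehicle difference of 0.54. Prtg, an immunoglobulin-family surface receptor, differed by 0.99, 1.39, 1.16 and 1.75 against 0.66. Nrip1, a corepressor that binds ligand-activated nuclear receptors and is a retinoid target, differed by 0.85, 0.89, 0.74 and 1.42 against 0.19, and was called over all times (0.98 ± 0.13, adjusted p 0.0465, limma). For these 3 genes every pair lay beyond the vehicle difference.

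In contrast, the tissue-nonspecific alkaline phosphatase gene Alpl (1.95, 1.57, 1.16 and 1.21) and the metalloprotease gene Tll1 (1.14, 1.68, 2.00 and 0.86) had vehicle differences of 2.53 and 2.90, above every pair. Retreg1, a receptor for turnover of endoplasmic reticulum, had a mean difference of 1.35 and a vehicle difference of 1.83. The acyl-CoA synthetase gene Acsf2 had 1.24 and 1.61. Cntfr, the receptor for ciliary neurotrophic factor, lay near its vehicle difference (1.62 and 1.25). These 5 genes were called between ATRA and BMS961, yet 2 vehicle arrays differed by as much or nearly as much.

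Snora16a, a small nucleolar RNA, had the called difference furthest below 0. It measured 7.66, 7.67, 7.14 and 6.95 with ATRA and 9.61, 9.04, 9.05 and 9.47 with BMS961, while the vehicle arrays measured 7.71 and 9.68. The ATRA arrays thus sat at the level of vehicle replicate 1 and the BMS961 arrays near that of replicate 2. Its mean difference was -1.93 ± 0.17 (adjusted p 0.0312, limma) and 0.04 ± 0.39 less the vehicle difference.

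The Y RNA Rny1 measured 4.63, 4.47, 4.18 and 4.22 with ATRA, 5.97, 5.67, 6.17 and 6.02 with BMS961, and 4.04 and 7.37 on the vehicle arrays. Its BMS961 values lay between the vehicle arrays, so the mean difference of -1.58 was smaller than the vehicle difference of -3.34. Snord118, Rnu3a and n-R5s136, a 5S ribosomal RNA gene, had mean differences of -1.52, -1.47 and -1.61 with vehicle differences of -2.19, -1.58 and -2.43. These 5 RNAs were the only genes at least 2-fold lower in all 4 pairs, and all 5 were at least 2-fold lower in the vehicle pair too. Among probe sets with no listed gene, 75 were at least 2-fold lower in all 4 pairs, and 74 of these also in the vehicle pair. Snord49b and Snord15a, and the genes Cyp4f40, Dusp27 and Ngdn, completed the 10 lowest called differences, each with a vehicle difference of the same sign (-0.85 for Dusp27 to -2.14 for Cyp4f40).

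**Figure D3:**
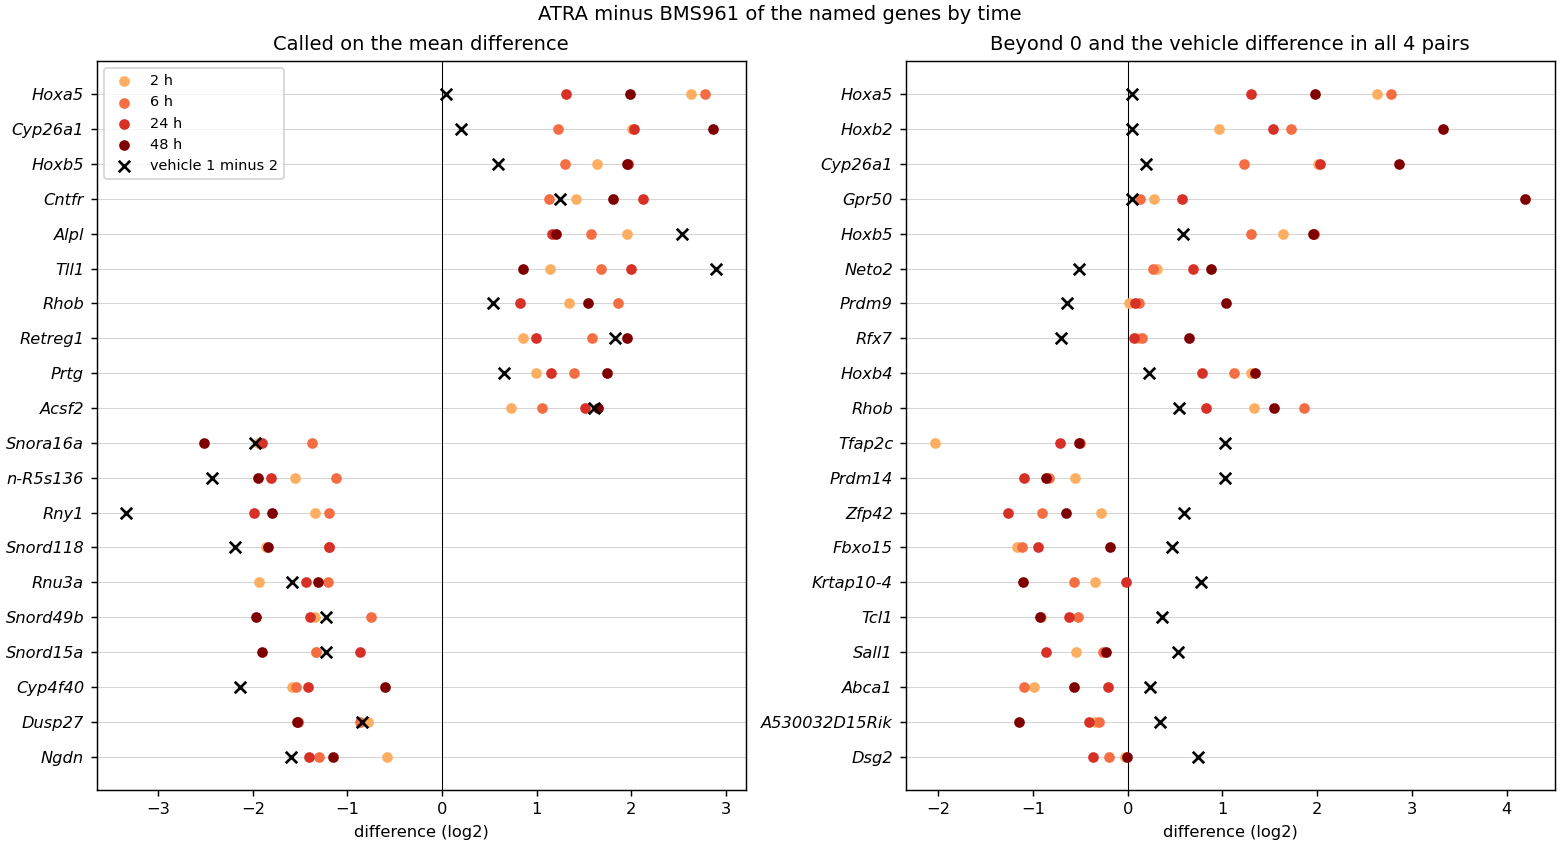
Differences of ATRA minus BMS961 on the log2 scale, 1 point per time, with the difference of the 2 vehicle arrays as a cross; genes called on the mean difference are on the left and genes lying beyond 0 and the vehicle difference in all 4 pairs on the right. On the left the crosses of the lower genes lie among or beyond the points, as for Snora16a at -1.98, and on the right the crosses of the lower genes lie above 0, as for Prdm14 at 1.03.

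Genes whose 4 differences lay beyond both 0 and the vehicle difference are described next, called or not. On the higher side the 10 largest were Hoxa5, Hoxb2, Cyp26a1, Gpr50, Hoxb5, Neto2, Prdm9, Rfx7, Hoxb4 and Rhob. Gpr50, an orphan receptor related to melatonin receptors, owed its place to 48 h. It measured 4.44, 4.28, 5.11 and 10.70 with ATRA and 4.17, 4.14, 4.53 and 6.5 with BMS961, against 4.13 and 4.09 on the vehicle arrays. Its difference at 48 h was 4.20, and its mean difference was not called (1.30 ± 0.63, adjusted p 0.336, limma). Neto2, Prdm9 and Rfx7 had small pair differences, with means of 0.53, 0.31 and 0.24, and vehicle differences of -0.52, -0.64 and -0.70, so the vehicle arrays gave about as much of the subtracted value as the pairs for Neto2, and more for Prdm9 and Rfx7.

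On the lower side, the 10 largest included Prdm14, Zfp42, Fbxo15 and Tcl1. Of the 29 measured pluripotency genes, 5 were among the 857 lower genes, which were 4.3% of all genes. Prdm14, a transcriptional regulator that keeps embryonic stem cells in the naive state, measured 7.97, 7.96, 6.87 and 6.85 with ATRA and 8.53, 8.79, 7.97 and 7.71 with BMS961. The vehicle arrays measured 8.87 and 7.85, a difference of 1.03 in the opposite direction. ATRA was lower at every time, with differences of -0.56, -0.83, -1.09 and -0.86, and the mean difference was -0.83 ± 0.11 (1.78-fold, adjusted p 0.0465, limma). Prdm14 was the only one of the 57 called genes whose vehicle difference had the other sign. Its late difference less the vehicle difference was called too, at -2.0 ± 0.24 (95% interval from -2.53 to -1.48, adjusted p 0.0228, limma).

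Zfp42, the stem cell marker also known as Rex1, measured 10.52, 10.14, 9.75 and 10.30 with ATRA against 10.80, 11.04, 11.02 and 10.95 with BMS961, and 11.59 and 10.99 on the vehicle arrays. All 4 ATRA values lay below all 4 BMS961 values. It was called late (-0.96 ± 0.18, adjusted p 0.00874, limma), and not over all times (-0.78 ± 0.16, adjusted p 0.0738). Tcl1, a coactivator of AKT signalling found in stem cells, differed by -0.91, -0.53, -0.62 and -0.92 with a vehicle difference of 0.37. Fbxo15, an F-box gene of undifferentiated cells, differed by -1.16, -1.12, -0.95 and -0.18 against 0.47. Tfap2c, a transcription factor of trophoblast and germ cells, was at 5.53 on the 2 h ATRA array against 7.56 with BMS961, and its differences at 6, 24 and 48 h were -0.50, -0.71 and -0.52, with a vehicle difference of 1.03. Krtap10-4, Sall1, Abca1, A530032D15Rik and Dsg2 completed the 10, with mean differences of -0.51, -0.47, -0.72, -0.55 and -0.15 and vehicle differences of 0.78, 0.53, 0.23, 0.35 and 0.75 in that order. For Dsg2, Krtap10-4, Sall1, Tfap2c and Prdm14 the vehicle difference was larger than the mean pair difference, so the vehicle arrays gave more of the subtracted value than the pairs.

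As a list, 29 measured pluripotency genes did not move together before the subtraction. Their median differences were 0.01, -0.10, -0.03 and -0.06, beside a median vehicle difference of 0.33. Over all times none was called higher and 2 lower (Prdm14 and Nr5a2), beside 0.155% and 0.13% of all genes. Late, 3 were called higher and 5 lower, beside 4.92% and 4.96% of all genes, which became 0 and 3 without the 24 h pair and 1 and 7 without the 48 h pair. Less the vehicle difference their median was -0.43, against -0.05 over all genes, with 5 members below both 0 and the vehicle difference in all pairs (beside 4.3% of all genes) and none above. Nr5a2, an orphan nuclear receptor, differed by -1.03, -1.02, -0.68 and -1.42, close to its vehicle difference of -0.93.

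Split by phase, 244 genes (1.22%) were higher and 311 (1.56%) lower with ATRA at the early times, and 981 (4.92%) higher and 988 (4.96%) lower at the late times, in a limma fit of all 18 arrays. Its spread came from the retinoid arrays, because each vehicle array had a term of its own. Centring each array on its median changed the late split to 709 higher and 1477 lower. Without BMS753 or BMS641 in the fit the early count of 555 became 212 or 187, and with ATRA, BMS961 and vehicle arrays alone the early and late counts were 101 and 632. Leaving out 1 pair leaves 1 array for each ligand in its phase, and the spread then comes from other arrays. Counts without a pair, for a phase or for late minus early, therefore compare single arrays. They do not measure stability, here or for the gene lists. The called genes again shared the sign of the vehicle difference, in 94.2% early (62.8% of all genes) and 94.0% late (65.8%).

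Less the vehicle difference, 2 genes were higher (0.01%) and 1 lower (0.00502%) early, and 2 higher (0.01%) and 6 lower (0.0301%) late. These few are named after their values were seen. Early, they were Hoxa5 and Slc16a3, a lactate transporter, on the higher side and B4galnt2, a glycosyltransferase, on the lower. Slc16a3 and B4galnt2 barely differed between the ligands early (-0.11 and 0.08) and took their calls from vehicle differences of -1.94 and 3.0. Late, the higher genes were Cltb, a clathrin light chain, and Pfkfb3, a regulator of glycolysis, with pair means of -0.11 and 0.47 against vehicle differences of -1.94 and -1.19. The lower genes were Adgre5, H2-M5, Inhbb, Klf4, Prdm14 and Tbx3. Klf4 and Tbx3, transcription factors of naive stem cells, were called higher with ATRA late (0.74 and 0.62) but had vehicle differences of 3.26 and 3.48. For Inhbb, an activin subunit, and H2-M5, the late difference (-1.11 and -0.93) and the vehicle difference (1.46 and 0.74) had opposite signs, as for Prdm14. With arrays centred on their median the late split was 3 higher and 2 lower, and with quantile normalization the early split was 2 and 2. The early 3 fell to 0 without the 2 h pair and 1 without the 6 h pair, and to 0 without either BMS753 or BMS641. The late 8 rose to 493 without the 24 h pair, were 9 without the 48 h pair, and fell to 3 without BMS753 and 0 without BMS641.

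The late difference minus the early difference holds no vehicle array, so a difference between the ligand series that was constant over time cancels from it. It was above 0 for 140 genes (0.702%) and below 0 for 121 (0.607%) at an adjusted p below 0.05 by limma. In all 261, both late pairs lay on the same side of both early pairs. Early and late differences had opposite signs in 105 of the 140 and 76 of the 121. The count was 1 without the 2 h pair, 115 without the 6 h pair, 803 without the 24 h pair and 275 without the 48 h pair; it was 104 without BMS753, 84 without BMS641 and 2 with ATRA, BMS961 and vehicle arrays alone. The vehicle difference was closer to the late than to the early difference in 131 of the 261, and lay within 0.5 of 0 in 102.

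The upper side included genes that were low with ATRA at 2 and 6 h. Dnmt3l, the cofactor of de novo DNA methylation, measured 7.01, 7.35, 7.41 and 7.66 with ATRA and 10.39, 9.72, 7.73 and 7.01 with BMS961, against 9.03 and 10.49 on the vehicle arrays. The 2 h ATRA array was already at the level that BMS961 reached at 48 h. Late minus early was 3.05 ± 0.40 (8.27-fold, adjusted p 0.00742, limma). Plk2, a polo-like kinase gene, measured 7.65, 7.26, 9.59 and 8.76 with ATRA and 9.67, 9.54, 8.91 and 8.14 with BMS961, against 8.91 and 9.59 on the vehicle arrays. ATRA was below BMS961 early (-2.02 and -2.28) and above it late (0.69 and 0.62), a change of 2.80 ± 0.20 (adjusted p 0.000451, limma).

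Cd24a, a surface glycoprotein gene, had the largest change on that side. Its level was 4.65, 4.33, 6.38 and 8.16 with ATRA and 6.69, 6.37, 5.80 and 5.44 with BMS961, so the lines crossed between 6 and 24 h (late minus early 3.69 ± 0.70, adjusted p 0.0331, limma). Its vehicle arrays measured 6.46 and 7.09. B4galnt2 differed by -0.08 and 0.24 early and by 3.29 and 2.43 late, but its vehicle difference was 3.0.

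Lefty2 and Lefty1 encode secreted inhibitors of NODAL, the ligand that patterns the early embryo. Lefty2 measured 9.85, 9.55, 10.31 and 11.02 with ATRA and 8.54, 8.05, 6.85 and 5.86 with BMS961, against 10.24 and 8.71 on the vehicle arrays. BMS961 values declined with time and ATRA values did not, so the difference was 1.31, 1.5, 3.46 and 5.16. The early differences were close to the vehicle difference of 1.52, the late ones larger, and late minus early was 2.90 ± 0.47 (95% interval from 1.86 to 3.95, adjusted p 0.0181, limma). Lefty1 differed by 1.55, 1.33, 3.22 and 2.91 with a vehicle difference of 1.85 (late minus early 1.63 ± 0.26, adjusted p 0.0172). Both were at least 2-fold higher with ATRA in all 4 pairs. The mean difference of Lefty2 over all times, 2.86, was not called (adjusted p 0.0738, limma).

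Among the 20 measured genes of Nodal, BMP and TGF-beta signalling, 6 were called higher and 1 lower late, beside 4.92% and 4.96% of all genes, and 4 rose and 1 fell from early to late, beside 0.702% and 0.607%. Without the 2 h or the 6 h pair fewer rose, in fits that leave 1 array for each ligand in the early phase. Nodal itself differed by 0.00, -0.01, 1.00 and 0.56 and was called late (0.78 ± 0.16, adjusted p 0.0118, limma), with a vehicle difference of 0.49. Id2, an inhibitor of helix-loop-helix factors, differed by -0.68, 0.06, 1.04 and 1.82 against a vehicle difference of -1.06. Inhbb went the other way, with 0.80, 0.33, -0.95 and -1.26 against 1.46.

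The lower side included genes that were high with ATRA already at the early times. Cyp11a1, which encodes the enzyme that starts steroid synthesis, measured 8.11, 7.92, 7.35 and 7.59 with ATRA and 5.92, 6.66, 8.78 and 8.50 with BMS961. The vehicle arrays measured 6.04 and 5.75, so both ligands ended above them. Its late minus early difference was -2.90 ± 0.30 (adjusted p 0.00243, limma), and the vehicle difference was 0.29. Calcoco2, an autophagy receptor gene, measured 9.43, 9.09, 10.12 and 10.10 with ATRA and 5.63, 6.88, 9.82 and 10.21 with BMS961, but its vehicle arrays measured 8.37 and 4.86. The late levels were nearly equal (difference 0.10, 95% interval from -0.79 to 0.99), and the early gap of 3.0 was below the vehicle difference of 3.51.

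Khdc3, a gene of the oocyte and early embryo, measured 7.29, 7.74, 5.63 and 4.93 with ATRA and 5.29, 5.79, 6.21 and 5.65 with BMS961, with vehicle arrays at 5.92 and 5.46. Ankrd44 differed by 2.84, 1.49, 0.35 and -1.14 (vehicle 1.39), and the peptide transporter gene Slc15a1 by 1.36, 0.16, -1.47 and -1.78 (vehicle 1.55). The differences of Ankrd44 and Slc15a1 became lower at each step, and those of Khdc3 were alike within each phase.

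**Figure D4:**
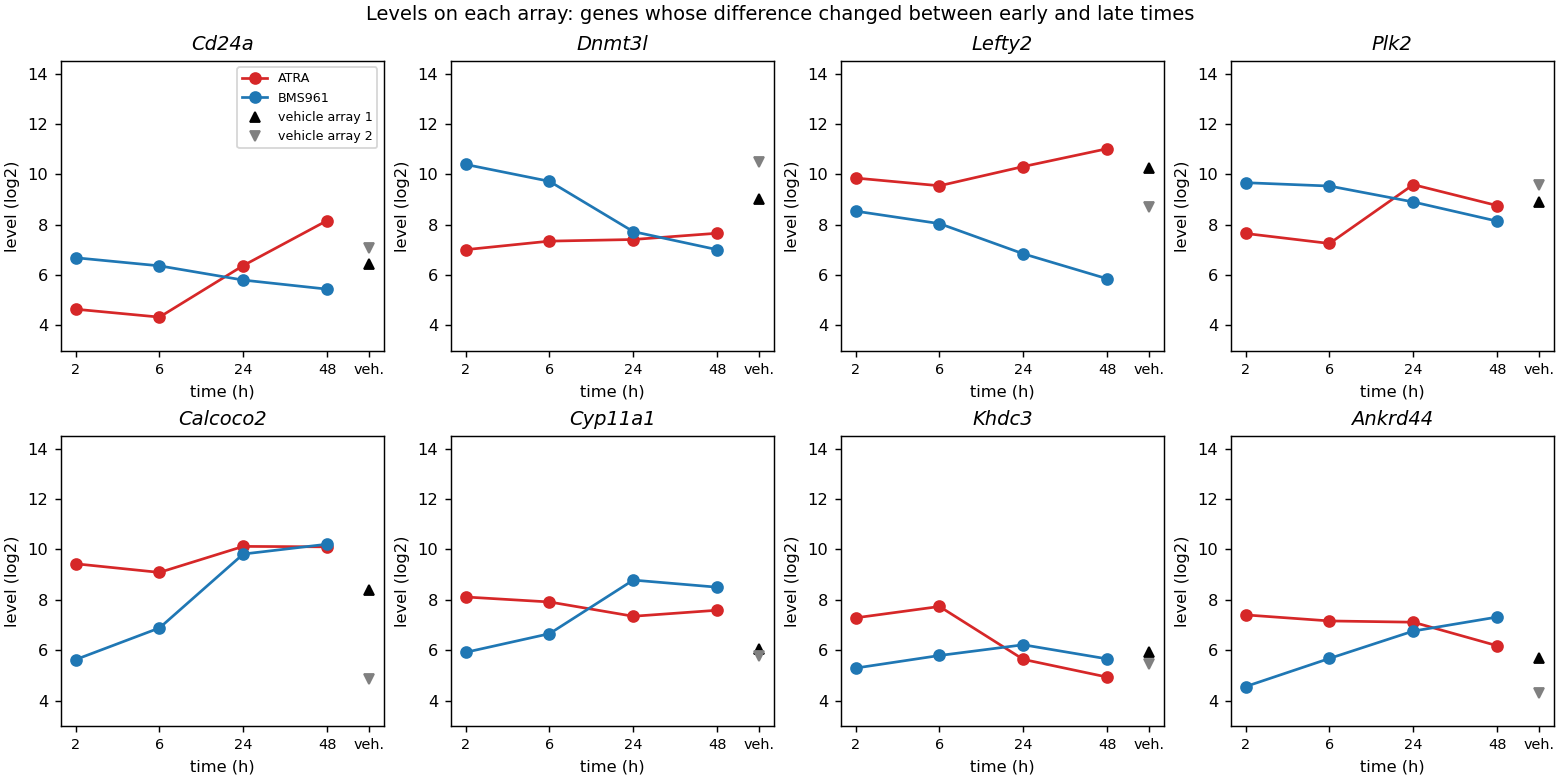
Log2 levels on every array by time, as points joined for ATRA and for BMS961, with the 2 vehicle arrays as triangles, for the 4 genes with the largest rise (top) and the 4 with the largest fall (bottom) of the ATRA-minus-BMS961 difference from early to late times. The lines cross between 6 and 24 h for Cd24a, Plk2, Cyp11a1 and Khdc3; Lefty2 lines part, and the Calcoco2 triangles lie 3.51 apart.

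Of 16 genes measured in the list of p53 targets and apoptosis, 5 were lower with ATRA early (beside 1.56% of all genes) and none higher, 4 were higher late (beside 4.92%) and none lower, and 4 rose from early to late (beside 0.702%). The early count was 0 without the 2 h pair and 1 without the 6 h pair, and the late counts were 2 higher without the 24 h pair, and 5 higher and 2 lower without the 48 h pair. The count that rose was 0 without the 2 h pair, 2 without the 6 h pair, 4 without the 24 h pair, and 5 with 1 falling without the 48 h pair. Trp53inp1, a p53-induced stress protein gene, differed by -1.40, -0.93, 0.98 and 0.95 (late minus early 2.13 ± 0.18, adjusted p 0.00137, limma) with a vehicle difference of 0.35. Mdm2, the ligase that degrades p53, differed by -0.86, -0.85, 0.57 and 0.40 with a vehicle difference of 0.14. Ccng1, a cyclin G gene, differed by -0.60, -0.90, 0.82 and 0.55 (vehicle 0.16), and Sesn2, a stress-induced inhibitor of growth signalling, by -0.50, -0.70, 0.83 and 0.13 (vehicle 0.54). In these 4 genes both early differences were below 0 and both late ones above it. For Trp53inp1 the ATRA levels were 9.51, 9.73, 11.34 and 11.04 against 10.91, 10.66, 10.36 and 10.09 with BMS961, so it was the ATRA arrays that changed most.

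Cholesterol and glycolysis genes differed late in the way the vehicle arrays did. Of 18 cholesterol synthesis and LXR target genes measured, 12 were lower with ATRA late and none higher, beside 4.96% of all genes. Their median difference was 0.08 at 2 h, -0.16 at 6 h, -0.87 at 24 h and -0.91 at 48 h, and the median vehicle difference was -1.02. Between early and late 8 fell, beside 0.607% of all genes, which was 0, 3, 6 and 5 without the 2, 6, 24 and 48 h pair. Idi1, an isoprenoid synthesis enzyme gene, measured 10.71, 10.16, 8.41 and 8.67 with ATRA and 10.68, 10.53, 10.26 and 9.83 with BMS961, and 8.68 and 10.65 on the vehicle arrays. Its late ATRA arrays lay at vehicle replicate 1 and its BMS961 arrays near replicate 2.

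Of 18 hypoxia and glycolysis genes, 1 was higher and 11 lower late, beside 4.92% and 4.96% of all genes, and the median vehicle difference was -0.81. Without the 24 h pair 3 were lower, and without the 48 h pair 10. Ldha, lactate dehydrogenase A, differed by -0.17, -0.32, -1.34 and -1.06 with a vehicle difference of -1.44. Of 17 mitosis genes 9 were lower late, with median differences of -0.38 and -0.44 at 24 and 48 h and a vehicle median of -0.23; 6 and 2 were lower without the 24 h and the 48 h pair. With the vehicle difference subtracted, the medians at 2, 6, 24 and 48 h were 1.02, 0.78, 0.11 and 0.07 for the cholesterol list, 0.40, 0.50, -0.02 and 0.34 for glycolysis, and 0.16, 0.07, -0.10 and -0.24 for mitosis. For the cholesterol list the subtraction thus left a median near 0 late and one above 0 early, where the unsubtracted medians were 0.08 and -0.16.

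**Figure D5:**
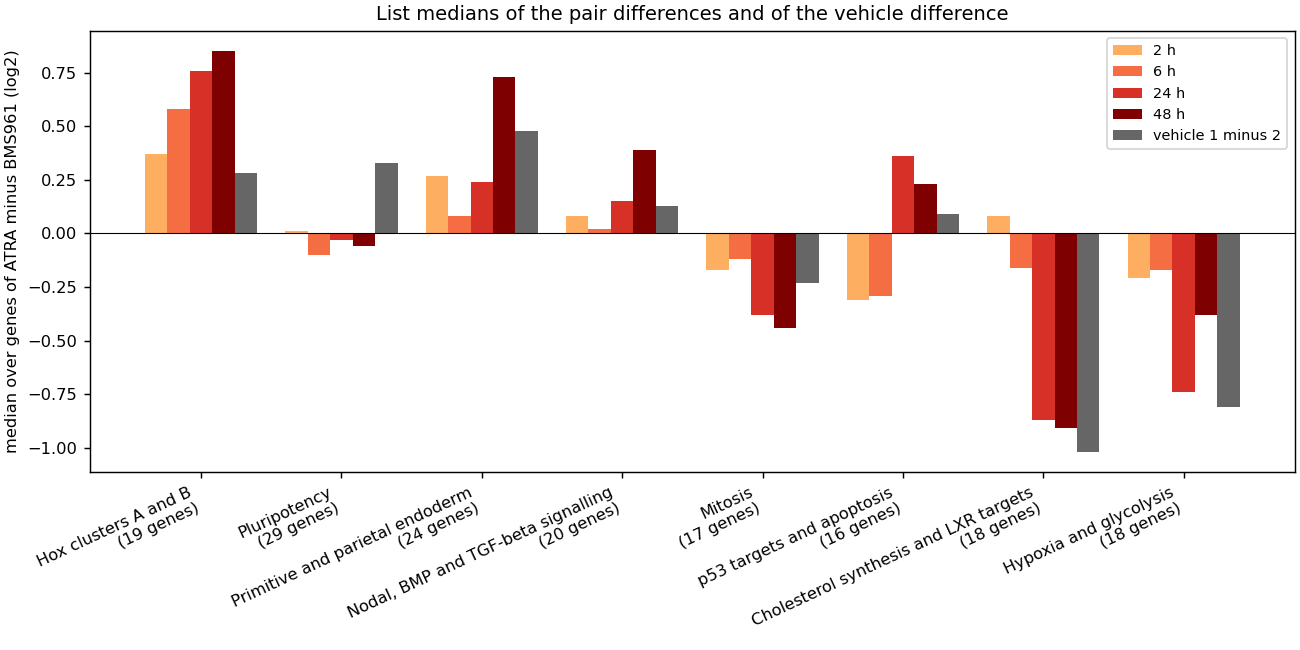
Bars give the median over the measured genes of a list of the ATRA-minus-BMS961 difference (log2) at each time, and grey bars the median of vehicle array 1 minus 2. The Hox A and B medians (0.37 to 0.85) exceed their grey bar of 0.28, the late cholesterol medians (-0.87 and -0.91) lie near theirs of -1.02, and the p53 medians are below 0 at 2 and 6 h and above 0 at 24 and 48 h.

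Measured against separate vehicle arrays (ATRA against replicate 1, BMS961 against replicate 2, with no array in common), the ligands' responses had their lowest correlation across genes at 2 h (0.12). ATRA was at least 2-fold above or below its vehicle array in 217 and 240 genes at 2 h, and BMS961 in 43 and 14. At 6 h the counts were 146 and 145 for ATRA against 94 and 53. At 24 h they were 112 and 80 against 286 and 133, and at 48 h 807 and 212 against 498 and 299. With this assignment ATRA had the larger count on the higher side at 2, 6 and 48 h and BMS961 at 24 h. On the lower side ATRA had the larger count at 2 and 6 h and BMS961 at 24 and 48 h. No label gives the assignment, and the 2 vehicle arrays were themselves at least 2-fold apart in 665 genes. Which ligand had the larger count may therefore depend on the vehicle array used. Genes higher with both numbered 15, 40, 71 and 285 in time order, which was 6.91%, 27.4%, 63.4% and 35.3% of those higher with ATRA, and 34.9%, 42.6%, 24.8% and 57.2% of those higher with BMS961. Opposite differences of that size were seen in 1, 0, 4 and 15 genes. The 2 h and 6 h arrays were set against 48 h vehicle, so time in culture and treatment cannot be told apart there. Across all genes the response to ATRA at 24 h correlated best with that to BMS961 at 24 h (0.48), and the 48 h responses with each other (0.41). The 2 h ATRA response correlated at 0.12, 0.20, 0.14 and 0.02 with BMS961 at 2, 6, 24 and 48 h.

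Direct and early retinoid targets showed several time courses. Of 21 measured, 2 were called higher over all times (Cyp26a1 and Nrip1), beside 0.155% of all genes. Early 5 were higher and 1 lower, beside 1.22% and 1.56%, and late 4 were higher, beside 4.92%. The count over all times was 0 to 1 with a pair left out. The 5 higher early became 0 without the 2 h pair and 1 without the 6 h pair, and the 4 higher late became 11 without the 24 h pair and 3 without the 48 h pair. Stra8, the retinoid-induced gene of meiotic entry, measured 10.15, 10.29, 10.93 and 10.28 with ATRA and 5.98, 8.25, 10.24 and 10.37 with BMS961. The vehicle arrays were as far apart, at 8.44 and 5.17. Its early difference of 3.10 ± 0.52 was called (adjusted p 0.0136, limma) and became -0.16 ± 0.90 less the vehicle difference, and late the levels differed by 0.30 (95% interval from -0.84 to 1.44). Otx2, which is not among the 21, is an anterior epiblast factor known to fall with retinoids. It was at 5.28, 6.60, 7.06 and 5.77 with ATRA and 7.94, 7.53, 6.35 and 6.39 with BMS961. Both vehicle arrays were high (9.63 and 9.46). Otx2 was lower with ATRA early (-1.79 ± 0.39, adjusted p 0.0358, limma).

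Some genes, named after their values were seen, were highest on the 48 h ATRA array. Crabp2, a retinoic acid carrier gene, measured 6.53, 6.09, 7.86 and 11.47 with ATRA and 6.58, 6.64, 8.59 and 7.97 with BMS961, so it was raised at 24 h with both ligands. Tshz1, a zinc finger factor, measured 8.30 on the 48 h ATRA array and between 4.83 and 5.64 on the other 7 retinoid arrays of the comparison. Nr2f2, the orphan receptor COUP-TFII, measured 6.66 there against 4.47 with BMS961, and Bmp2, a bone morphogenetic protein gene, 6.71 against 4.56. The 48 h differences were 3.5, 2.78, 2.19 and 2.15 for Crabp2, Tshz1, Nr2f2 and Bmp2, with vehicle differences between -0.38 and 0.17. Of these only Nr2f2 was called late by limma, and all 4 values rest on 1 array.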

How the data were processed

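Total RNA was labelled by a whole-transcript sense protocol and hybridised to Affymetrix arrays, per the labels' protocols. Per the submitters' processing notes, the authors summarised each probe set with RMA in Affymetrix Expression Console 1.1, and the deposited values are log2 levels. The log2 values were used as deposited, with no further scaling and no filter on dim genes. Depth does not apply to arrays; their number limits the precision. Of 35556 probe sets, 21789 had 1 gene symbol in the platform annotation, 1621 had several and 12146 were not listed. The first gave 19938 genes, each by its probe set of highest mean level over all 18 arrays.

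limma 3.58.1 (R 4.3.3) was used with eBayes. The mean over times came from 10 arrays (ATRA, BMS961, vehicle) with time as a block and a term for each vehicle array, leaving 3 residual degrees of freedom. Early (2 and 6 h) and late (24 and 48 h) differences came from all 18 arrays with ligand within phase and time as a block (6 degrees of freedom). Errors after ± are standard errors, and for subtracted values they take the error of the vehicle pair to be that of the retinoid pairs. Adjusted p-values follow Benjamini-Hochberg over all 19938 genes, called below 0.05. Single times have no test. With 4 pairs an exact two-sided sign test could not go below 0.125. Fits were tested on simulated data.

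The arrays compared and the 29 gene lists were chosen with earlier results of these data known. Named genes were the 10 highest and 10 lowest called mean differences with 1 sign in 4 pairs, the 10 highest and 10 lowest mean differences less the vehicle difference among genes whose pairs all lay beyond 0 and the vehicle difference on the same side, called or not, and the 5 highest and 5 lowest called late minus early differences; list members were named besides. Small RNAs and near-identical copies share probes and are uncertain. Alternatives were scaling, gene filter, probe set rule, spread estimate, arrays in the fit, fold and leaving out each pair.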

Additional observations from a re-analysis of the deposited data

Results flagged for a closer look

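The difference between ATRA and BMS961 itself differed between early and late times for 261 genes by limma's test of late minus early. The largest rises, on the log2 scale, were in Cd24a (3.69), Dnmt3l (3.05), Lefty2 (2.90), Plk2 (2.80) and B4galnt2 (2.78). The largest falls were in Calcoco2 (-2.90), Cyp11a1 (-2.90), Khdc3 (-2.62), Ankrd44 (-2.56) and Slc15a1 (-2.38). Dnmt3l, B4galnt2, Calcoco2, Ankrd44, Lefty2 and Slc15a1 also differed by more than 1 between the vehicle arrays, whereas the vehicle difference was 0.29 for Cyp11a1, 0.46 for Khdc3, -0.68 for Plk2 and -0.64 for Cd24a. With 1 array for each ligand and time, no group was large enough to look for outlying arrays.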

How the results depend on the processing

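With 1 array for each ligand and time and 2 vehicle arrays that differ, the counts depend on the model. The count of 57 for the mean over times became 0 with quantile normalization (3673 genes at an unadjusted p below 0.05), 111 with arrays centred on their median, 91 with probe sets averaged for each gene, 269 with eBayes trend and robust, 28 at 2-fold or more, 1774 with all retinoid arrays in the fit and 4 with no time block. Leaving out 1 pair gave 0 to 116. Less the vehicle difference the count was 0 in each of the 12 alternatives run, leave-one-out included, by limma. Early (555) it was 925 for genes above the median mean level, 154 at 2-fold, 101 with ATRA, BMS961 and vehicle arrays only, 212 without BMS753 and 187 without BMS641, and 2 to 69 with a pair left out. Late (1969) it was 334 at 2-fold and 632 with the 3 groups only, and 1358 to 1704 with a pair left out. Early less the vehicle difference (3) it was 34 with trend and robust, 0 with the 3 groups only, 0 without BMS753 and 0 without BMS641, and 0 to 1 with a pair left out. Late less the vehicle difference (8) it was 5 with centring, 18 for genes above the median level, 25 with trend and robust, 0 with the 3 groups only, 3 without BMS753 and 0 without BMS641, and 9 to 493 with a pair left out. Late minus early (261) was 2 with the 3 groups only, 104 without BMS753 and 84 without BMS641, and 1 to 803 with a pair left out. Centring moved the median over all genes from -0.05 to 0.065 for the mean less the vehicle difference, and from -0.072 to 0.072 early. The leave-one-out fits of the phases were chosen after seeing the data. They leave 1 array for each ligand in a phase, so their counts compare single arrays and do not measure stability. The cause of these changes was not tested, except that fits on fewer arrays have fewer degrees of freedom.

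Counts at single times follow the fold by construction. At 1.5-fold they were 1395, 1185, 2371 and 2599 at 2, 6, 24 and 48 h, 2976, 1889, 1211 and 4333 less the vehicle difference, and 2862 in the vehicle pair; at 3-fold 77, 28, 93 and 146, then 71, 41, 70 and 270, and 138. Among genes above the median level the 48 h counts were 421 and 731. Genes at least that far from vehicle the same way with both ligands numbered 106, 247, 351 and 958 at 1.5-fold and 4, 10, 22 and 105 at 3-fold. For single named genes called in the main or the alternative fit, no direction reversed. Of the values under alternatives, 477 kept their side of the threshold and 119 lost the call, 86 of these on the mean over times. Values of the mean less the vehicle difference were called in no fit, so all of them count as kept. Some alternatives change the test and not the estimate.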

Other observations

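Markers of primitive and parietal endoderm, the fate F9 cells take with retinoids, were called higher with ATRA late in 4 of 24 measured genes and lower in none, beside 981 higher among all 19938 genes. Their median difference was 0.27, 0.08, 0.24 and 0.73 in time order, and the median vehicle difference was 0.48. Less the vehicle difference the median was -0.17, -0.44, -0.22 and 0.22. No member lay beyond both 0 and the vehicle difference in every pair. Krt18, a keratin gene, differed by -0.13, 0.10, 0.65 and 2.95, and Plat, tissue plasminogen activator, by 0.08, -0.23, 0.25 and 2.45, so that both stood out at 48 h; their vehicle differences were 0.45 and 0.37. Gata6, a master regulator of this lineage, differed by 1.72, 0.58, -0.90 and 0.37 with a vehicle difference of 1.05, and the 48 h levels were 11.30 with ATRA and 10.93 with BMS961.

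Of 17 measured genes in the list of CDK inhibitors, MYC and cyclin D genes, 3 were called lower with ATRA early, beside 1.56% of all genes, and none higher. Late, 2 were higher and 2 lower, beside 4.92% and 4.96% of all genes. From early to late 3 rose and none fell, beside 140 (0.702%) and 121 (0.607%) of all genes. The counts that rose and fell became 0 and 0 without the 2 h pair, 3 and 0 without the 6 h pair, 3 and 1 without the 24 h pair, and 1 and 2 without the 48 h pair; early, the 3 lower became 0 without the 2 h pair. Ccnd1, cyclin D1, differed by -0.01, -0.54, -1.69 and -1.34 and was called lower late, with a vehicle difference of -0.52. Mycn differed by -2.88, -2.09, -1.30 and 0.94 with a vehicle difference of -1.38, and was not called in any fit reported here. Outside that list, Tubb3, a neuronal tubulin gene, differed by 0.74, 0.09, -1.56 and -1.33 with a vehicle difference of -0.07, and was called both late and for the step from early to late. Meioc, a meiosis gene, differed by 0.08, 1.35, 3.05 and 3.52 with a vehicle difference of 1.92, and was called late (3.28 ± 0.25, adjusted p 0.000134 by limma).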
